A study of Mus musculus with 12 samples.

Results

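Serotonin receptors are the proteins through which serotonin, released in the hypothalamus by axons of raphe neurons, acts on its target cells. The 10 receptor genes described here (Htr1a, Htr1b, Htr1d, Htr2a, Htr2c, Htr3a, Htr4, Htr5a, Htr6 and Htr7) were chosen by symbol from a table of 32494 genes, and 10 of 10 were found. They were measured by RNA sequencing of the hypothalamus of 12 male mice. All mice carried floxed alleles of Smc3, the gene of a core cohesin subunit, all received tamoxifen, and tissue was taken 5 weeks after it; mice are described as 8 weeks old, at a step that is not named. The titles of all 12 samples, cKO included, also carry the word control, without saying for what. The 7 mice of the WT group lacked the Camk2a-cre/ERT2 transgene (labelled Cre-) and the 5 mice of the cKO group carried it (labelled Cre+). Camk2a-cre/ERT2 makes a tamoxifen-activated recombinase from the promoter of a kinase gene of forebrain excitatory neurons, so glia and neurons that do not use this promoter are in the tissue but are not its target. Values are the normalized CPM (counts per gene on a per-million scale, with a scaling factor for each library) that the authors deposited. That factor is close to the summed reads of a library but not equal to them.

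All but one of these receptors are G protein-coupled. The Htr1 group and Htr5a couple mainly to inhibitory G proteins, which lower cyclic AMP and open potassium channels. The Htr2 group couples to Gq and phospholipase C, and Htr4, Htr6 and Htr7 raise cyclic AMP through Gs. Htr3a encodes a subunit of a ligand-gated cation channel. In the hypothalamus serotonin is known for its part in appetite, body temperature and daily rhythm, and Htr2c is best known there for suppression of feeding through melanocortin neurons.

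WT 1 was sequenced to 68.7 M reads and the other 11 libraries to between 17.1 and 24.0 M reads. Smc3, which should fall in a knockout, went against the labels. Its mean in the WT libraries was 81.6 ± 3.14 CPM (SD, n = 7). In libraries labelled cKO its mean was 131 ± 10.3 CPM (SD, n = 5), and the ranges did not overlap. The two-sided exact permutation p was 0.00126, the smallest that 792 splits allow, for a limma log2 fold change of 0.67. The labels do not say which exons were floxed, and a count over the whole gene need not show their loss. Whether the labels are exchanged was not tested; if they were, every direction below would turn, so each refers to libraries by their label. Of 16 hypothalamic marker genes 14 averaged 1 CPM or more, but their summed level ran from 85.4 to 729 CPM in WT and from 186 to 788 CPM in cKO. The lowest sums were those of WT 5 (85.4 CPM), WT 4 (102 CPM), cKO 12 (186 CPM) and cKO 13 (264 CPM), and results are also given without these 4 libraries.

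The promoters of Htr1a and Htr2c are shown because these are the 2 receptor genes whose level changed between the groups. They are RefSeq sequences of build GRCm38.p6, matched by symbol and running from 250 bases before to 50 bases after the annotated start, 5′ to 3′ on the gene's strand. The build behind the deposited values is not given in the sources used here. Capitals mark any match, on either strand, to 1 of 3 motifs, and no match overlapped one of another motif in the receptor promoters. The first, GGGCGG, is the box bound by factors of the Sp family. The second, TATAAA, is the classical core promoter element that positions the polymerase. The third, TGACG, is the core of the response element for cyclic AMP signalling. The Htr1a sequence is chr13:105443443-105443742, plus strand, and the Htr2c sequence is chrX:146962263-146962562, plus strand.
Htr1a: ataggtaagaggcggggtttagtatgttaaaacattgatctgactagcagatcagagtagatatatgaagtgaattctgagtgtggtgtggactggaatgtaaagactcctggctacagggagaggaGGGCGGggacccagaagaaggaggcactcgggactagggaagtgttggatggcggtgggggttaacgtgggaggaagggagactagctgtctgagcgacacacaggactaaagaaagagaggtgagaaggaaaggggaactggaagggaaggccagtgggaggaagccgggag
Htr2c: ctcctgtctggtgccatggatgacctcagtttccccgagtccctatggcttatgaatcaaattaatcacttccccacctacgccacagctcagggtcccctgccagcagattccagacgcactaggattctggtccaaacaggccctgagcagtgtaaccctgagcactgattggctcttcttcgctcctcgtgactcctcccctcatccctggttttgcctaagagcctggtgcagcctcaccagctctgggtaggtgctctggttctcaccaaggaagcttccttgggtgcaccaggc
Htr1a held 1 Sp box in this window and Htr2c held none of the 3 motifs. Sp boxes occurred in 5 of the 10 promoters listed for 8 of the receptor genes (both of Htr1d, 1 of Htr6, and those of Htr1a and Htr2a) and in 35.7% of all 32851 promoters. The core promoter element was in 0 of these 10 promoters (13.6% of all) and the cyclic AMP element in 1, that of Htr7 (20.8% of all). A match here describes letters only. The promoters of Htr1a and Htr2c held 7 and 5 CpG dinucleotides, at or below the median of 7 over all promoters, while that of Htr7 held 46.

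Levels of different genes were compared as CPM per kb of annotated exon (GENCODE M21), over the 7 WT libraries. Htr7, a receptor of thalamus and of the suprachiasmatic clock, and Htr2c stood above the rest. Htr7 was at 14.99 ± 3.40 CPM per kb and Htr2c at 14.6 ± 0.908 CPM per kb (SD, n = 7), and Htr7 was the higher one in 3 of 7 libraries. They made up 31.6% and 31.1% of the summed level of the 10 genes. Their order depends on the length used: with the longest annotated transcript in place of all exon bases, chosen after seeing the data, Htr2c was at 27.9 and Htr7 at 16.1 CPM per kb, and the shares and the drop to the next gene change with it.

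A drop of 3.96-fold separated Htr2c from the next gene, Htr1a, with no overlap of ranges. Htr1a, the inhibitory autoreceptor of raphe neurons that is also found on their targets, was at 3.68 ± 0.660 CPM per kb (SD, n = 7). Htr1b, an inhibitory receptor of axon terminals, was at 3.18 ± 0.562 CPM per kb. Htr5a followed at 2.74 ± 0.404 and Htr4 at 2.65 ± 0.361 CPM per kb. Within these 4 genes each neighbour's range overlapped the next, so their order is not firm.

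The lowest 4 genes began 1.62-fold below Htr4, again without overlap of ranges. Htr6, a receptor best known from the striatum, was at 1.63 ± 0.305 CPM per kb (SD, n = 7). Htr3a was at 1.31 ± 0.421, Htr1d, a presynaptic relative of Htr1b, at 1.28 ± 0.202, and Htr2a, the receptor of cortical pyramidal cells on which psychedelics act, at 1.11 ± 0.334 CPM per kb. Ranges of neighbours overlapped here too. In the libraries labelled cKO Htr7, Htr2c, Htr6 and Htr2a held the same ranks as in WT, and Htr1a went from rank 3 to rank 6.

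**Figure D1:**
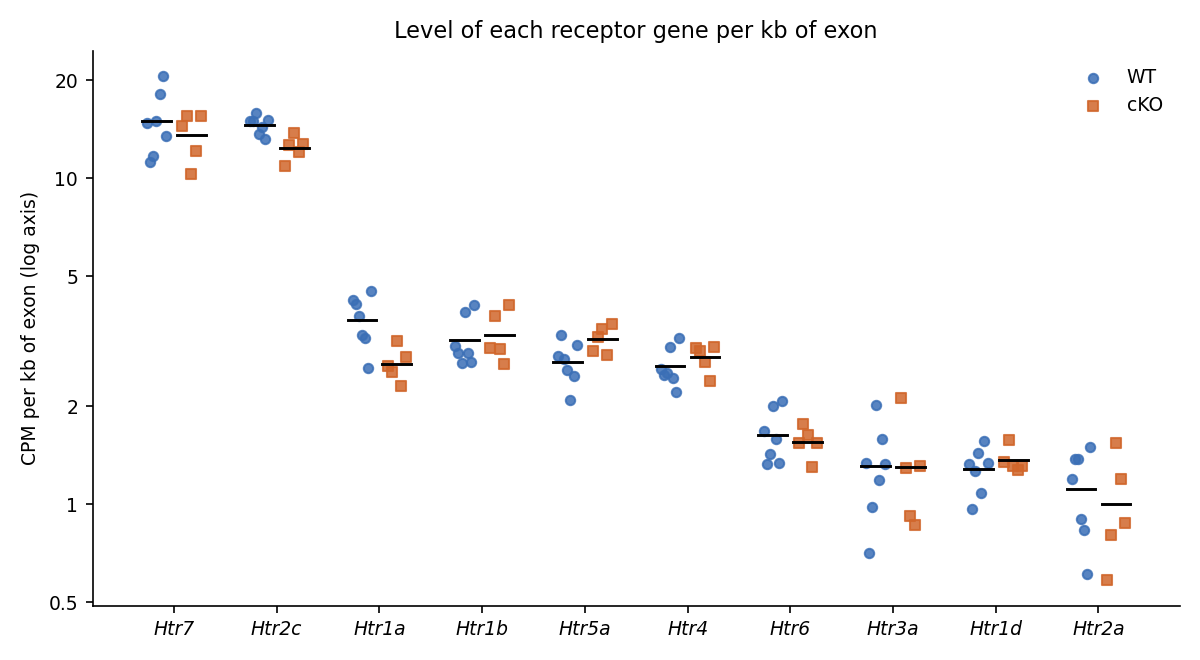
Level of each of the 10 receptor genes in CPM per kb of annotated exon (log axis), one point per library, with WT (7 libraries) as circles, cKO (5 libraries) as squares and the group mean as a line. Htr7 and Htr2c lie above 10 CPM per kb and the other 8 genes below 5.

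Which receptor genes differed between the groups was taken from a limma fit over the 15359 genes that averaged 1 CPM or more, on log2(CPM + 1), which understates changes of low genes. All 10 receptor genes were tested. Htr2c and Htr1a fell in the libraries labelled cKO, 0 rose, and 8 were not past an adjusted p of 0.05. That is 2 of 10, where 14.1% of all tested genes passed, 6.54% higher and 7.6% lower; 2 genes are too few to set apart from that share. edgeR and DESeq2 on recovered reads called 13.7% and 17.9% of all genes. A log2 fold change below 0 was found for 6 of the 10 genes and for 47.5% of all tested genes. The median log2 fold change of the 10 genes was -0.030, against 0.0092 over all genes, and the median absolute value was 0.11 against 0.10. In 0 of the 10 were the group ranges free of overlap, which was seen in 6.73% of all tested genes. In bulk tissue, fewer cells of a type and less RNA per cell cannot be told apart.

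**Figure D2:**
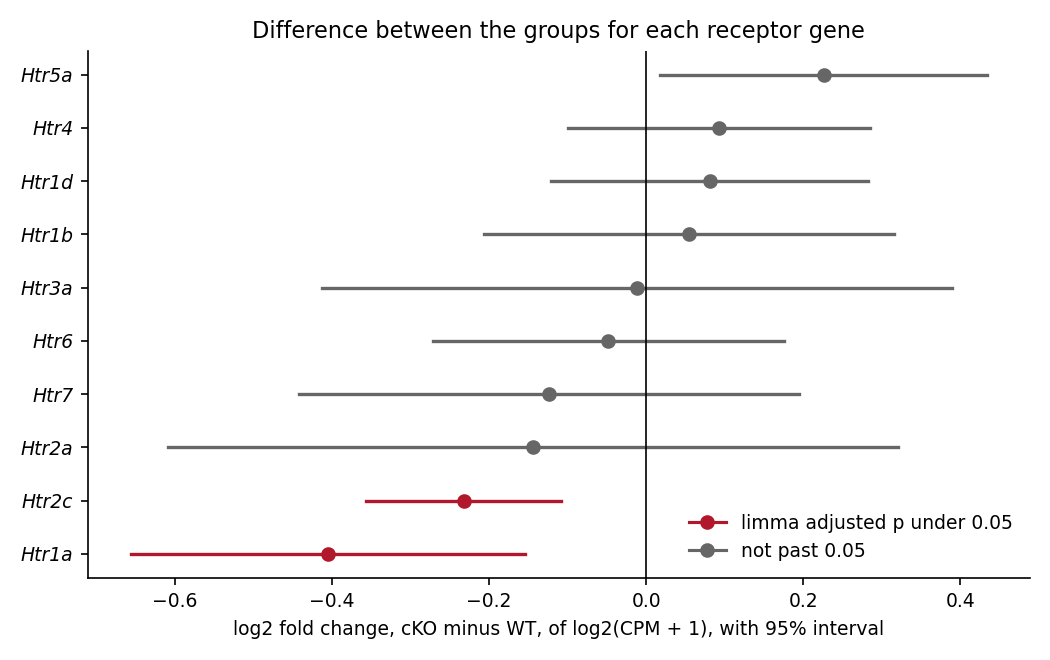
log2 fold change of each receptor gene (cKO minus WT, on the log2(CPM + 1) scale; horizontal axis) with its 95% interval, from the limma fit. Red marks the 2 genes past an adjusted p of 0.05, Htr1a at -0.41 and Htr2c at -0.23; the interval of Htr5a lies above 0 without passing the adjusted threshold.

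Htr2c, the Gq-coupled appetite receptor, lies on chromosome X (146962513 to 147197277, plus strand, GRCm38), spans 235 kb and has 8 blocks of exon. In WT it was lowest at 123 CPM (WT 11), with a median of 139.7 and a highest value of 148 CPM (WT 5). In the libraries labelled cKO it was at 102 CPM in cKO 8, 118 in cKO 9, 129 in cKO 12, 112 in cKO 13 and 119 in cKO 14. The ranges overlapped through cKO 12 alone: the other 4 cKO libraries were below every WT library, and 5 of 5 were below the WT median. The WT mean of 136 ± 8.47 CPM (SD, n = 7) fell by 14.9% to 116 ± 9.91 CPM (SD, n = 5) in cKO. On the log2 scale this was -0.23 (SE 0.06, 95% interval -0.36 to -0.11, limma adjusted p 0.0206). It rested on 2004 to 9607 reads per library, the deepest of the 10 genes, and the call was kept in 12 of 12 fits with a mouse removed (limma adjusted p 0.0123 to 0.0461). The authors' deposited table lists Htr2c at -0.23 on the log2 scale with FDR 0.0233. Of all 32494 genes it lists, those averaging under 1 CPM included, 4.94% passed an FDR of 0.05.

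Choroid plexus, where Htr2c is very abundant, was checked as another source of its reads. The 13 choroid plexus markers together reached 30.0 to 43.9 CPM in WT and 27.3 to 32.95 CPM in cKO, none of them was at 0 in every library, and 8 of the 13 had a mean under 1 CPM. Ttr, the most abundant transcript of that tissue, was at 3.52 ± 2.55 CPM in WT and 3.39 ± 1.64 CPM in cKO. Clic6, the highest of the list, was at 16.2 ± 4.16 CPM in WT and 10.4 ± 2.697 CPM in cKO (log2 fold change -0.58, limma adjusted p 0.0635), and the other tested markers Kl, Otx2 and Sostdc1 were at -0.23, -0.085 and 0.24. Of the 5 markers tested 0 passed the limma threshold (14.1% of all genes) and 1 had an unadjusted p under 0.05 (31.1% of all genes). edgeR called 0 (13.7% of all genes) and DESeq2 1 (17.9% of all genes). Among the untested markers, Slc4a5 went from 0.387 to 0.156 CPM, Aqp1 from 0.328 to 0.180 CPM and Cldn2 from 0.421 to 0.386 CPM. The other untested ones, Folr1, Kcnj13, Kcne2, Tmem72 and Steap1, had higher means in cKO than in WT. With the mean log2 level of the 13 markers (the choroid plexus score) as a covariate, Htr2c was at -0.23 on the log2 scale (limma adjusted p 0.0423), in a fit where 12.2% of all genes passed. Over the 7 WT libraries this score had a Pearson r of 0.49 with Htr2c (exact permutation p 0.252, adjusted 0.579 over 95 pairs). Without the 2 libraries farthest from the median score r was 0.91.

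Htr1a is a gene of 1 exon on chromosome 13 (105443639 to 105448122, plus strand, GRCm38). In WT it ran from 11.8 CPM (WT 11) through a median of 16.9 to 20.2 CPM (WT 15). In the libraries labelled cKO it was at 11.9 CPM in cKO 8, 11.4 in cKO 9, 14.2 in cKO 12, 10.4 in cKO 13 and 12.7 in cKO 14. Of the 7 WT libraries 6 were above the highest cKO library, and the overlap came from WT 11 alone. The WT mean of 16.5 ± 2.96 CPM (SD, n = 7) fell by 26.6% to 12.1 ± 1.44 CPM (SD, n = 5) in cKO. On the log2 scale this was -0.41 (SE 0.12, 95% interval -0.66 to -0.15, limma adjusted p 0.0351).

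The log2 fold change of Htr1a ran from -0.48 to -0.36 over the 12 fits with a mouse left out. Its call was less firm than that of Htr2c. With mice left out singly it was lost in 7 of 12 cases, with a limma adjusted p of 0.0731 without WT 1, 0.0621 without WT 4, 0.0568 without WT 15, 0.0617 without cKO 8, 0.0757 without cKO 9, 0.0829 without cKO 13 and 0.0569 without cKO 14. It was also lost with the choroid plexus score as a covariate, at a log2 fold change of -0.41 as without it (SE 0.13, limma adjusted p 0.0621), and without the 4 libraries lowest in hypothalamic markers (log2 fold change -0.37, limma adjusted p 0.133), where 10.3% of all genes passed and Htr2c was at -0.24 (limma adjusted p 0.0440). With the hypothalamic score as a covariate, where 19.9% of all genes passed, Htr1a was at -0.40 (limma adjusted p 0.0314) and Htr2c at -0.22 (limma adjusted p 0.0141). The authors' deposited table lists Htr1a at -0.45 on the log2 scale with FDR 0.0233.

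The other inhibitory receptors did not pass the threshold. Htr5a was at 11.2 to 17.8 CPM in WT (median 15.02) and at 15.8, 17.5, 18.5, 15.4 and 19.2 CPM in cKO 8, 9, 12, 13 and 14, and 5 of 5 cKO libraries were above the WT median. Its log2 fold change was 0.23 (SE 0.10, 95% interval 0.018 to 0.43), with an unadjusted p of 0.0354 and a limma adjusted p of 0.131, where 31.1% of all tested genes had an unadjusted p under 0.05. For Htr1b the 95% interval was -0.21 to 0.32 (15.03 ± 2.66 CPM in WT, 15.7 ± 2.79 CPM in cKO). In both groups Htr1b split into libraries at 17.9 to 19.3 CPM (WT 6, WT 15, cKO 9 and cKO 14) and the remaining ones at 12.7 to 14.5 CPM. An antisense gene, D430036J16Rik, covers 852 of the exon bases of Htr1b at a mean of 1.21 CPM. The strand setting of the counting is not given, so within these shared bases its reads and those of Htr1b cannot be told apart. For Htr1d the interval was -0.12 to 0.28 (4.11 ± 0.648 CPM in WT, 4.37 ± 0.388 CPM in cKO).

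Htr2a, the other Gq-coupled receptor of the list, had among the widest spreads. It ran from 3.43 CPM (WT 11) to 8.41 CPM (WT 15) in WT and from 3.27 CPM (cKO 8) to 8.63 CPM (cKO 12) in cKO, and the groups overlapped almost fully. Its 95% interval of the log2 fold change was -0.61 to 0.32, which takes in a fall as large as that of Htr1a.

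The Gs-coupled receptors and the channel subunit were also not past the threshold. Htr4 was at 12.99 ± 1.77 CPM in WT and 13.9 ± 1.33 CPM in cKO (95% interval of the log2 fold change -0.10 to 0.29). Htr6 was at 3.83 ± 0.713 and 3.64 ± 0.396 CPM (interval -0.27 to 0.17). Htr7 went from 38.1 to 70.0 CPM in WT and from 35.0 to 52.9 CPM in cKO (interval -0.44 to 0.19). Htr3a was at 2.72 ± 0.877 and 2.71 ± 1.04 CPM (interval -0.41 to 0.39), on 30 to 192 reads per library. Under quantile normalization the log2 fold changes of Htr3a and Htr6, both near 0, changed sign. That of Htr3a also did under median centring, which moves all genes by the same amount.

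**Figure D3:**
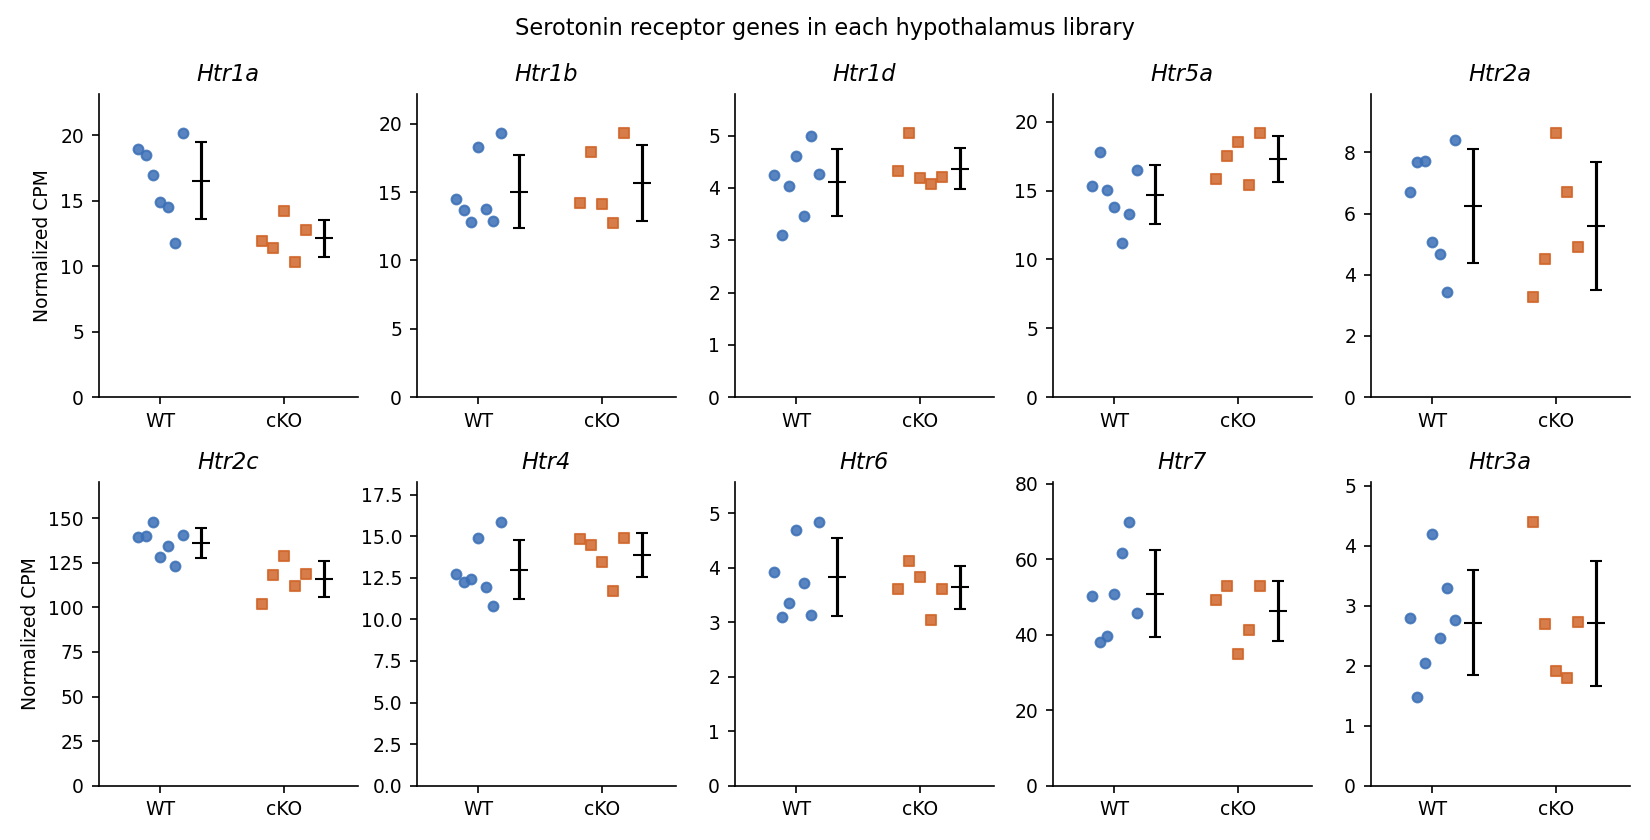
Normalized CPM (vertical axes, from 0) of the 10 serotonin receptor genes, one point per library, with WT (7 libraries) as circles and cKO (5 libraries) as squares; black marks are the mean ± SD. Htr2c and Htr1a lie lower in most cKO libraries, and the ranges of the 2 groups overlap in all 10 panels.

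How much the genes varied among mice of one group differed widely. Htr2c was the steadiest, with a coefficient of variation of 6.22% over the 7 WT libraries, where counting alone would give 1.73%. Htr3a and Htr2a were the most variable, at 32.2% and 30.0%, where counting would give 12.99% and 8.46%. Htr7 varied by 22.7% over the WT libraries, on 772 (WT 4) to 3465 (WT 1) reads, where counting would give 2.90%. Counting values leave out differences between separate mice, so a spread above them is given as a description only. In the libraries labelled cKO the values of Htr1d (8.88%) and Htr6 (10.9%) were below what counting would give (10.6% and 11.6%).

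Whether receptor genes varied together from mouse to mouse was examined by correlation. Values were taken over the 7 WT libraries for 95 pairs (45 pairs of receptor genes and 50 pairs of a receptor gene with 1 of 5 marker scores), with exact two-sided permutation tests. Htr1a and Htr2a had a Pearson r of 0.95 (exact p 0.00357, adjusted 0.0589) and a Spearman's rho of 0.86 (exact p 0.0238), and r was 0.85 without the 2 libraries farthest from the median of Htr1a. Htr2a and Htr2c had an r of 0.90 (exact p 0.00496, adjusted 0.0589) and a rho of 0.93 (exact p 0.00675), with an r of 0.85 without 2 libraries. Htr2a and Htr7 ran in opposite directions, with an r of -0.91 (exact p 0.00317, adjusted 0.0589) and a rho of -0.86 (exact p 0.0238), and r was -0.65 without 2 libraries, so that the relation rests in part on these. Htr1b had an r of 0.94 with Htr6 (exact p 0.00377, adjusted 0.0589; rho 0.86, exact p 0.0238; r 0.70 without 2 libraries) and of 0.95 with Htr4 (exact p 0.00476, adjusted 0.0589; rho 0.75, exact p 0.0663; r 0.56 without 2 libraries). None of the 45 pairs of receptor genes passed 0.05 after Benjamini-Hochberg adjustment over the 95 pairs.

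One pair did pass. Htr4 was lower where the thalamic and habenular marker score, the mean of log2(CPM + 1) over 14 genes, was higher, with an r of -0.96 (exact p 3.97e-04, adjusted 0.0377), a rho of -0.96 (exact p 0.00278) and an r of -0.95 without 2 libraries. Htr4 was at 10.8 CPM in WT 11, which had the highest score of 5.13, and at 15.9 CPM in WT 15, which had the lowest of 4.42. The relation was not seen in the 5 libraries labelled cKO, too few for a correlation: scores of 4.29, 4.44, 3.98, 4.54 and 4.59 in cKO 8, 9, 12, 13 and 14 stood beside Htr4 at 14.8, 14.5, 13.4, 11.7 and 14.9 CPM. The same score had an r of -0.87 with Htr1b (exact p 0.00357, adjusted 0.0589; rho -0.79, exact p 0.0480; r -0.91 without 2 libraries) and -0.90 with Htr6 (exact p 0.00397, adjusted 0.0589; rho -0.93, exact p 0.00675; r -0.91 without 2 libraries). All pairs share library depth and scaling.

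**Figure D4:**
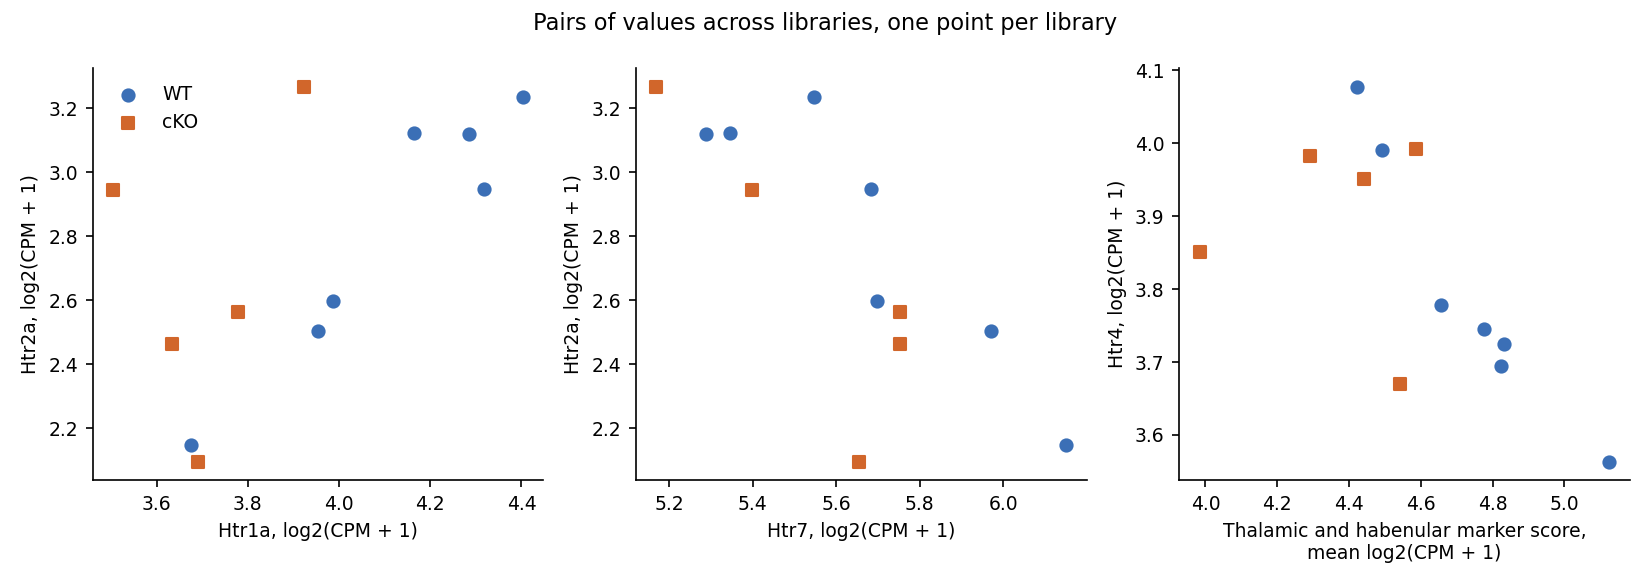
Log2(CPM + 1) of Htr2a against Htr1a (left), of Htr2a against Htr7 (middle) and of Htr4 against the thalamic and habenular marker score (right), one point per library, WT (7 libraries) as circles and cKO (5 libraries) as squares. Over the WT libraries Pearson's r is 0.95, -0.91 and -0.96.

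Some of these markers, thalamic ones, also moved with the groups. Of the 14 genes 4 fell (Prkcd, Rgs16, Plekhg1 and Slitrk6), 0 rose and 11 had a log2 fold change below 0, where 7.6% of all tested genes fell and 47.5% were below 0. Of the habenular genes, Tac2 was at 0.48, Gpr151 at 0.49, Nwd2 at 0.031, Gng8 at -0.032 and Pou4f1 at -0.36 on the log2 scale, none past the threshold (the lowest limma adjusted p was 0.118). None of the 14 was at 0 in every library, and their summed level was 564 to 1108 CPM in WT and 351 to 665 CPM in cKO. With their score as a covariate, Htr2c had a log2 fold change of -0.29 (limma adjusted p 0.0425) and Htr1a of -0.63 (limma adjusted p 0.0193), in a fit where 5.25% of all genes passed. Htr1b, Htr4 and Htr7, none of them past the threshold in either fit, changed sign in it, to -0.067, -0.064 and 0.11. Htr2a moved from -0.14 to -0.47 (limma adjusted p 0.274) and Htr6 from -0.048 to -0.25 (limma adjusted p 0.179), also not past it.

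Htr7, Htr3a and Htr2a lay toward an end of their group's range in the 4 libraries lowest in hypothalamic markers. Htr7 was at 38.1 CPM in WT 4, 39.7 in WT 5, 35.0 in cKO 12 and 41.2 in cKO 13, the 2 lowest values of each group, and Htr3a had the 2 lowest values of each group in the same libraries, at 1.48, 2.05, 1.91 and 1.80 CPM. Htr2a was at 7.69, 7.72, 8.63 and 6.69 CPM there, among the higher values of each group. The same 4 libraries had the highest summed level of 5 oligodendrocyte markers, at 8403, 9246, 8148 and 9383 CPM, where the other 8 ran from 3765 to 6452 CPM. The part of these markers in the receptor differences beyond the values given was not tested. Sim1 was the 1 hypothalamic marker of 14 tested that passed the limma threshold, and it rose, where 14.1% of all genes passed and 6.54% rose. Of the 14, 10 had a log2 fold change above 0, and the median was 0.43.

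In the other marker lists by limma 0 genes passed among 6 tested of cortex and hippocampus, 6 of striatum, 2 of anterior pituitary, 4 of astrocytes, 5 of oligodendrocytes, 5 of microglia, 3 of endothelium and 4 of ependyma, with 1, 1, 1, 1, 0, 2, 0 and 0 genes at an unadjusted p under 0.05. Over all tested genes 14.1% passed and 31.1% had such a p. By edgeR and DESeq2 0 were called in each list. In the same order of lists 2, 3, 1, 3, 4, 5, 3 and 4 of the tested genes had a log2 fold change above 0. Over all genes 8067 of 15359 did. The 5 pituitary markers summed to 1.75 to 5.82 CPM in WT and 2.89 to 13.6 CPM in cKO. Gh was at 1.27 ± 0.964 CPM in WT and 4.92 ± 3.82 CPM in cKO (limma adjusted p 0.112), and Prl, under the minimum of 1 CPM, was at 0.161 ± 0.180 and 0.840 ± 0.614 CPM. Tshb, the other one tested, was at 1.77 ± 0.279 and 1.73 ± 0.667 CPM. Cga (0.0833 and 0.188 CPM) and Fshb (0.0279 and 0.122 CPM) were near the level of 3 reads. Their part in the receptor differences was not tested. The 3 markers of serotonin neurons themselves (Tph2, Slc6a4 and Fev) were each under a mean of 1 CPM and reached at most 1.48 CPM together.

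Genes around the receptors were taken from 3 lists. Among 4 further receptor genes, Htr1f (1.13 ± 0.333 CPM in WT, 1.30 ± 0.271 in cKO) and Htr5b (1.77 ± 0.468 and 1.80 ± 1.02) were tested and 0 passed, with 0 at an unadjusted p under 0.05 and 0 by edgeR or DESeq2; Htr2b and Htr3b were under 1 CPM. Of 14 genes of serotonin synthesis, transport and breakdown 10 were tested and 0 passed by limma, again with 0 at an unadjusted p under 0.05 and 0 by edgeR or DESeq2. Beside these 2 lists stand the 14.1% of all genes that passed and the 31.1% with an unadjusted p under 0.05. Maoa, the main enzyme of serotonin breakdown, was at 70.9 ± 2.73 CPM in WT and 72.8 ± 2.35 CPM in cKO.

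The third list held 30 G proteins, effectors and partners of the receptors, all tested, of which 2 rose and 2 fell by limma. edgeR called 4 and DESeq2 5, adding Adcy1 (limma log2 fold change -0.39, adjusted p 0.0789), and 8 had an unadjusted p under 0.05 (31.1% of all genes). These 4 of 30 are near the 14.1% of all tested genes that passed (6.54% higher, 7.6% lower), so the count does not set the list apart. Gnaq, the G protein alpha subunit through which Htr2c and Htr2a signal, was at 270.2 ± 8.11 CPM in WT (SD, n = 7) and 295 ± 6.68 CPM in cKO (SD, n = 5) with no overlap of ranges, 0.12 higher on the log2 scale (SE 0.03, limma adjusted p 0.0241). S100a10, which encodes p11, a protein that binds some serotonin receptors and brings them to the cell surface, went from 12.4 ± 0.395 to 15.9 ± 1.61 CPM, also without overlap, 0.32 higher on the log2 scale (SE 0.06, limma adjusted p 0.00683). The 2 that fell belong to a gene family named for adenosine deaminases that act on RNA. Adar, of the same family and also listed, did not pass (log2 fold change -0.056, limma adjusted p 0.626). Adarb1, an enzyme that edits Htr2c transcripts, went from 461 ± 67.1 to 346 ± 43.5 CPM (log2 fold change -0.41, SE 0.10, limma adjusted p 0.0200). Its relative Adarb2 went from 31.2 ± 4.15 to 22.6 ± 3.82 CPM (log2 fold change -0.45, SE 0.11, limma adjusted p 0.0170). The median of the 30 was -0.013. With the thalamic and habenular score as a covariate S100a10 was the 1 gene of the 4 still past the threshold, at 0.31 (limma adjusted p 0.0440). In that fit 5.25% of all genes passed, against 14.1% without the score. There Adarb1 was at -0.20 (limma adjusted p 0.239), Adarb2 at -0.41 (0.105) and Gnaq at 0.11 (0.137), the last 2 with log2 fold changes close to those without the score. Gnaq missed the threshold without WT 1 (limma adjusted p 0.0518), without cKO 8 (0.0532) and without cKO 14 (0.0530). Without the 4 libraries lowest in hypothalamic markers S100a10 (log2 fold change 0.28, limma adjusted p 0.0535) and Adarb1 (-0.42, 0.0751) missed it. That fit had fewer libraries, and 10.3% of all genes passed in it.

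Genes whose levels followed the 2 fallen receptors from mouse to mouse were found by correlating deviations from the group means over the 12 libraries, which leaves the difference between groups out. Out of 15358 other genes those most like Htr1a were Aff2 (r 0.95), Tnfrsf21 (r 0.93) and Tnfaip2 (r 0.93). Those most like Htr2c were Tril (r 0.96), Sorl1 (r 0.95) and Sptb (r 0.95). They are the top of a long ranking, share library depth and scaling with the receptors, and are given as a description. None of the 6 was past the limma threshold between the groups (adjusted p 0.103 for Tnfrsf21, the lowest of them).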

How the data were processed

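Libraries were made from total RNA by messenger RNA isolation and the NEBNext Ultra II kit, per the labels' protocols. The submitters' processing notes name bcl2fastq, FastQC 0.11.9, STAR 2.7.9a, SAMtools, Subread and featureCounts; genome build, annotation and strand setting are not given in the sources used here. The authors deposited normalized CPM per gene and library, and a second table holding their log2 fold changes, p-values and FDR, per the file headers. In the deposited CPM, 100% of values were whole multiples of 1 step per library (tolerance 0.001 reads), so whole reads were recovered; 0 columns were unused. A floor of 3 reads was 0.0436 to 0.178 CPM, covering counting error only.

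Differences were tested with limma 3.58.1 (R 4.3.3; lmFit, eBayes with trend, no covariates) on log2(CPM + 1) for genes averaging 1 CPM or more, with Benjamini-Hochberg adjustment and a threshold of 0.05. Alternatives were DESeq2 1.42.0 (2747 genes called) and edgeR 4.0.16 by quasi-likelihood (2098 genes) on recovered reads, quantile normalization, median centring, another pseudocount (0.1), no filter beyond values above 0, a minimum of 5 CPM, eBayes without trend, arrayWeights, marker scores as covariates and leaving out each mouse. The hypothalamic covariate, the fit without 4 libraries and the transcript length were added after seeing the data. Named were the 10 receptor genes, Smc3, pathway genes past the threshold, and the 3 genes most like each receptor gene past it; others were named after their values were seen. Members and lists were chosen with earlier results of these data known. Mice are separate animals by number; no batch is labelled.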

Additional observations from a re-analysis of the deposited data

Results flagged for a closer look

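Among 48 groups of values (the receptor genes, Smc3, depth and summed marker levels in each group), 2 held a library far from the rest, where chance gives about 2.4. Htr1d was at 5.05 CPM in cKO 9, above the next cKO library at 4.32 CPM, in a group of 5. WT 1 had 68.7 M reads, above the next WT library at 24.0 M reads; its values of the receptor genes lay inside the range of the other WT libraries, and without it Htr1a missed the threshold (limma adjusted p 0.0731) and Htr2c did not (0.0461 was its highest limma adjusted p with any mouse left out).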

How the results depend on the processing

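Htr2c lay lower and past the threshold in all 25 alternatives (limma, edgeR and DESeq2; adjusted p at most 0.0461), and Htr1a lay lower in all 25, past it in 15. The number of receptor genes past it was thus 1 with all genes above 0 (1544 of 31802 genes passed) and with the choroid plexus score (12.2% of all genes). It was also 1 without the 4 libraries lowest in hypothalamic markers (10.3% of all genes), and 1 to 2 in fits with a mouse removed. Of 42 pathway genes tested, 4 were past the threshold in the main fit. Their number was 1 with the thalamic and habenular score (5.25% of all genes passed) and 2 without those 4 libraries (10.3%). It was 6 with arrayWeights (5126 of 15359 genes), 5 with DESeq2 (17.9%) and 5 with the hypothalamic score (19.9%). In fits with a mouse removed it was 3 to 5. Of all tested genes, 5126 passed with arrayWeights, 807 with the thalamic and habenular score, and 1158 (without WT 1) to 2302 (without WT 5) with a mouse removed, in place of 2172. Median centring put 1377 higher and 1054 lower, against 1004 and 1168. Smc3 stayed at 0.64 to 0.74 in all 25 alternatives. Signs reversed, never past the threshold, for Htr1b (-0.067 with the thalamic and habenular score, -0.056 with the choroid plexus score, -0.021 to 0.12 with a mouse removed), Htr3a (0.0019 with median centring, which moves all genes alike and so says nothing of this gene, 0.062 with quantile normalization, 0.050 without the 4 libraries, -0.16 to 0.078 with a mouse removed), Htr4 (-0.064) and Htr7 (0.11) with the thalamic and habenular score, and Htr6 (0.024 with quantile normalization, -0.085 to 0.00080 with a mouse removed). The cause was not tested. The minimum of 5 CPM gave no value for Htr1d, Htr3a or Htr6. No paired analysis was possible because the groups share no mouse number. Depth limits Htr3a, Htr6 and Htr1d most, with 30, 61 and 63 reads in their lowest libraries.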
